A study of Mus musculus with 9 samples.

Results

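Transcript levels of 9 genes of blood coagulation and fibrinolysis were followed in whole mouse lung after instillation of fine particulate matter (PM2.5). The genes are F3, Tfpi, Thbd, Procr, Plat, Plau, Plaur, F13a1 and Pf4. They were found by gene symbol among the 18875 genes of the deposited table, and all 9 passed the filter on low values. The lungs came from wild-type BALB/c mice in 3 groups of 3 libraries. The PBS group received the vehicle on the long-term schedule. The short-term group received PM2.5 into the nose at 10 mg/kg, 1 time, and the long-term group received the same dose once every 3 days, 6 times. The series names pulmonary fibrosis and acute lung injury as its subjects. No PBS group of the short duration was analysed here, so the short-term dose and the difference in schedule cannot be told apart in the comparison with PBS. The sources used here do not give the time between the last dose and collection. The labels do not say that each library is a separate mouse, so p-values measure the spread between these libraries, which may be technical.

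Coagulation starts when tissue factor on a cell surface meets factor VII from blood, and it ends in thrombin, which turns fibrinogen into fibrin. Healthy endothelium opposes this with a tissue factor pathway inhibitor and with thrombomodulin, which redirects thrombin towards activating the anticoagulant protein C. Plasminogen activators then form plasmin, which dissolves fibrin. In injured lung, fibrin can be laid down in the airspaces, and both its formation and its removal have long been studied there.

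Values are TPM, a unit scaled for transcript length and for the library total, so levels may be compared between genes. The length trend of the short-term libraries, given below, limits such comparisons there. A fold change here is a difference of group means of log2(TPM + 1), tested with limma and adjusted by the Benjamini-Hochberg method over 13991 tested genes, with an adjusted p under 0.05 called a change. Adding 1 TPM understates the change of low genes. The short-term libraries stood apart in transcript length. The median log2 fold change of short-term PM2.5 against PBS ran from 0.26 in the decile of genes with the shortest transcripts to -0.86 in the decile with the longest. Between 12560 and 13414 genes reached 1 TPM in the short-term libraries, against 13534 to 13930 in the other 6. The median over all tested genes was -0.34 for the short-term and 0.03 for the long-term comparison with PBS, and 0.41 between the exposures (long-term minus short-term). Values after adjusting every library for transcript length and GC content, called corrected values, are therefore set beside those as deposited.

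**Figure D1:**
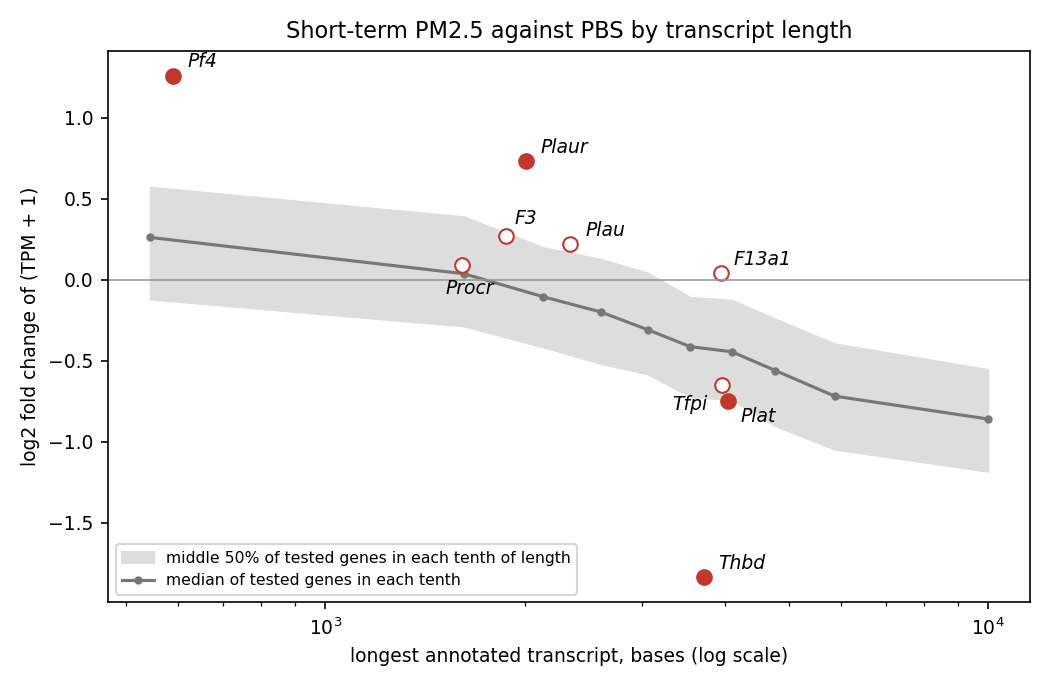
Log2 fold change of short-term PM2.5 against PBS by longest annotated transcript in bases (log axis): the grey line joins the medians of the tested genes in each decile of length, the band holds the middle 50%, and circles are the 9 genes, filled where adjusted p was under 0.05. The median falls from 0.26 in the shortest decile to -0.86 in the longest. Thbd lies far below the band at its length, and Pf4, Plaur and F13a1 lie above it at theirs. Plau is just above the band and Plat just below it.

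The sequences before the start sites of 3 genes are shown because these genes differ in the motif content of this window and Plaur and Pf4 were higher after short-term PM2.5. Each is the 250 bases before the RefSeq start site in GRCm38.p6, on the plus strand, at chr3:121723287-121723536 for F3, chr7:24462233-24462482 for Plaur and chr5:90772185-90772434 for Pf4. The Plaur window lies inside the RefSeq span of the gene, which begins further upstream. Capitals mark matches to TGANTCA, the motif of AP-1, a family of stress-responsive transcription factors.

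F3: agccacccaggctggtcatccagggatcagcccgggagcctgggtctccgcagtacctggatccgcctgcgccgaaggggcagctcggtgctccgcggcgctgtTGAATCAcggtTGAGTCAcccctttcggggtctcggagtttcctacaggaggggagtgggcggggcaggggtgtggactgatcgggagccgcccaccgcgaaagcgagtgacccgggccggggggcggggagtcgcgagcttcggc

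Plaur: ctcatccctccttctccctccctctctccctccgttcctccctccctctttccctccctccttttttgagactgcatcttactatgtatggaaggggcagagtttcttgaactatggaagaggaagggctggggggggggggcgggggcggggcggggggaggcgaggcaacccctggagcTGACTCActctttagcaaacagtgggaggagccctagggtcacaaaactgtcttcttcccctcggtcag

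Pf4: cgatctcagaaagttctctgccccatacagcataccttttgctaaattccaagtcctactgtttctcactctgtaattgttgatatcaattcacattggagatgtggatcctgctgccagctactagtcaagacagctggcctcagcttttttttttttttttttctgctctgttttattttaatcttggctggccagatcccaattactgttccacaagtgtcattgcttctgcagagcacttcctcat

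The F3 window holds 2 such matches, 146 and 135 bases before the start, and the Plaur window holds 1, at 69 bases. The Pf4 window holds none. The motif occurs in 6.75% of 32851 promoter windows, searched on both strands. GC boxes (GGGCGG) were found 3 times in F3 and 3 times in Plaur and not in Pf4, against 32.7% of windows with at least 1. A match is a stretch of letters and says nothing on binding in these lungs. Windows were matched for 6 of the 9 genes, and there was none for Thbd, Plat and Plau. Those of Tfpi, Procr and F13a1 are not printed. The Procr window holds 1 match to TGANTCA, at 154 bases, and the windows of Tfpi and F13a1 hold none.

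Short-term PM2.5 was accompanied by lower thrombomodulin (Thbd) and tissue plasminogen activator (Plat) and by higher urokinase receptor (Plaur) and platelet factor 4 (Pf4). Of the 9 genes, 2 rose and 2 fell against PBS, in a comparison in which 51.9% of all tested genes were called (11.7% higher and 40.3% lower). After long-term PM2.5 none of the 9 passed against PBS, where 11.2% of tested genes were called (9.51% higher and 1.72% lower), and 2 had an unadjusted limma p under 0.05 (Procr 0.0264 and Plaur 0.0345). Between the exposures, Thbd and Plat were higher and Pf4 lower in the long-term group, 3 of 9 against 50.5% of all genes (43.4% higher and 7.08% lower). The share of the 9 genes called is near or under that of all genes in each comparison. The comparisons share libraries, and the difference between the exposures is tested by the long-term against short-term comparison itself.

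After the adjustment for length and GC content 1 of the 9 was lower after long-term PM2.5 (Tfpi), where 24% of genes were called (12.4% higher and 11.6% lower). After short-term PM2.5, Pf4, Plaur and F13a1 were higher and Thbd lower, 4 of 9 against 50.5% (24% higher and 26.4% lower). Between the exposures Thbd was higher and Plaur, F13a1 and Pf4 lower in the long-term group, 4 of 9 against 42.3% (19.6% higher and 22.6% lower). Groups whose libraries did not overlap as deposited were seen for 4 of 9 genes in long-term against PBS (3 higher, 1 lower), against 43.2% of all genes (25.9% higher, 17.4% lower). They were seen for 4 of 9 in short-term against PBS (2 higher, 2 lower), against 60.3% (14.5% higher, 45.8% lower), and for 3 of 9 between the exposures (1 higher, 2 lower), against 60.1% (50.2% higher, 9.94% lower).

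**Figure D2:**
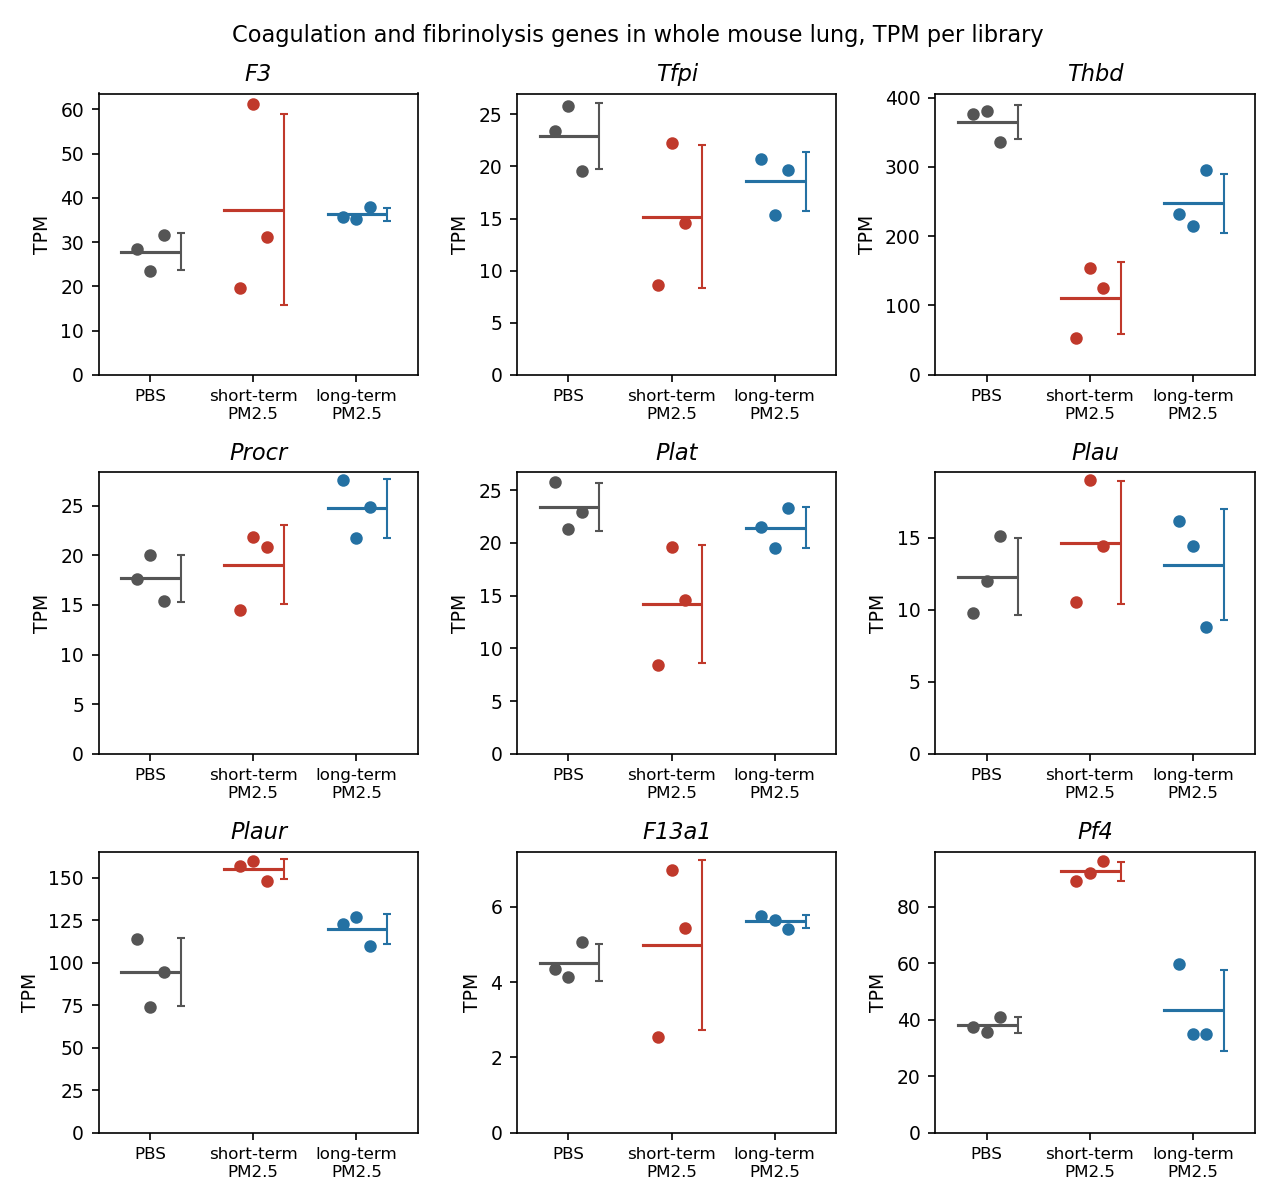
TPM of each of the 9 genes in each library (points), with a line at the group mean and a bar of 1 SD beside it, on an axis from 0 for each gene. The short-term libraries of Thbd reach at most 153 TPM and those of Pf4 at least 89.3 TPM, clear of PBS, while F3 spreads from 19.5 to 61.3 TPM in the short-term group.

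**Figure D3:**
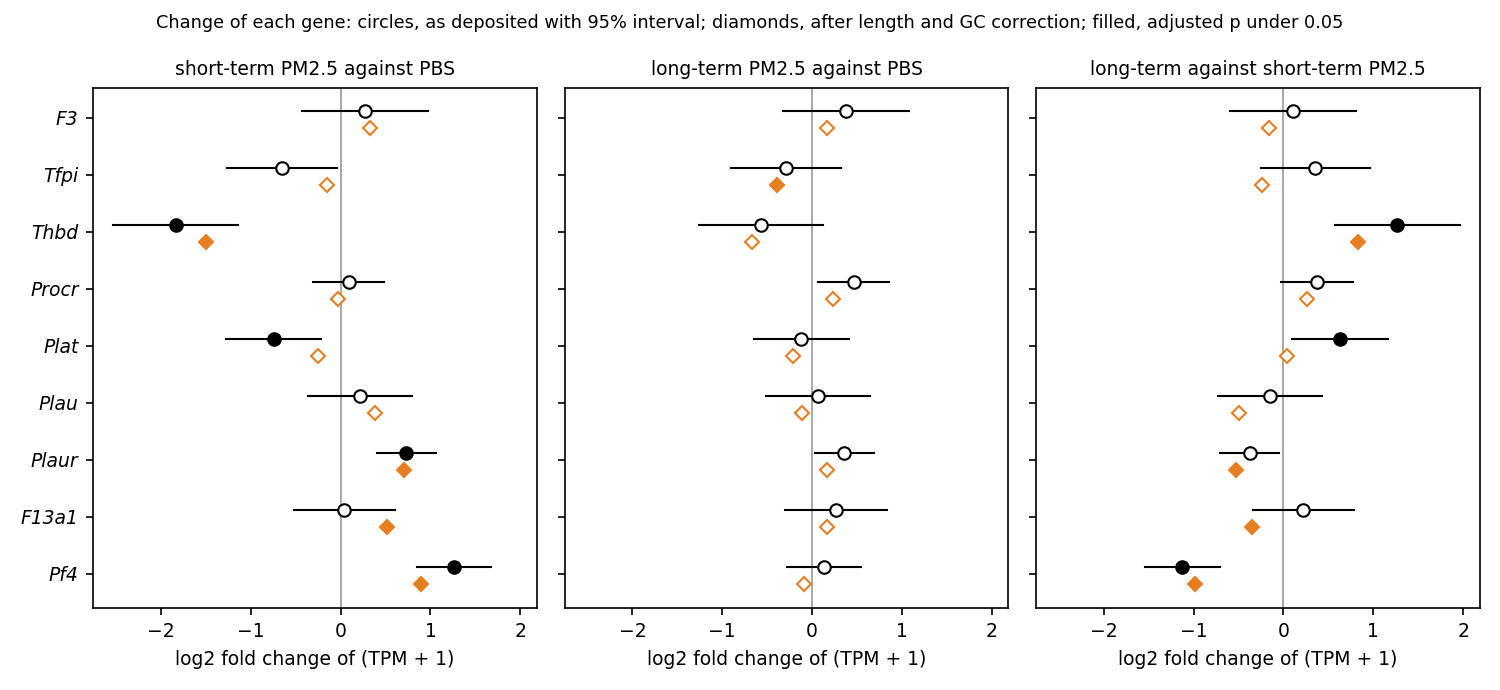
Log2 fold changes of the 9 genes in the 3 comparisons: circles as deposited with 95% intervals, diamonds after correction for length and GC content without intervals, filled where adjusted p was under 0.05. In short-term PM2.5 against PBS, Thbd, Plaur and Pf4 are filled on both scales, and Plat only as deposited.

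Tissue factor, encoded by F3 (gene 14066, chromosome 3, 121723537 to 121735052), is the cell-surface starter of coagulation. Its level was 28.5, 23.5 and 31.6 TPM in PBS, 19.5, 61.3 and 31.2 after short-term PM2.5, and 35.6, 35.2 and 38.0 after long-term PM2.5. All long-term libraries lay above all PBS libraries, while the short-term libraries ran from below the PBS range to well above it. The log2 fold change was 0.38 ± 0.32 (SE, n = 3 per group; limma adjusted p = 0.608) for long-term and 0.27 (limma adjusted p = 0.488) for short-term against PBS, with corrected values of 0.16 and 0.32 that did not pass. The short-term value was 0.64 without the first short-term library (limma adjusted p = 0.0332) and -0.16 without the second (limma adjusted p = 0.486). With all libraries it passed under median-ratio scaling (0.61, limma adjusted p = 0.0493) and with median transcript length in the correction (0.54, limma adjusted p = 0.0422).

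Tfpi (gene 21788, chromosome 2, 84432855 to 84476775) encodes the inhibitor of the tissue factor and factor VII complex. Tfpi stood at 23.4, 25.8 and 19.5 TPM in PBS, 8.62, 22.3 and 14.6 after short-term PM2.5, and 20.7, 15.3 and 19.6 after long-term PM2.5. Both exposed groups overlapped PBS. The fold change for short-term against PBS was -0.65 (limma adjusted p = 0.0693), -0.15 corrected (limma adjusted p = 0.327), and -0.96 without the second short-term library (limma adjusted p = 0.00291). For long-term against PBS it was -0.29 (limma adjusted p = 0.665), and the corrected value of -0.39 passed (limma adjusted p = 0.0428).

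The quotient of F3 to Tfpi within a library was 1.22, 0.909 and 1.62 in PBS, 2.26, 2.75 and 2.14 after short-term and 1.72, 2.30 and 1.94 after long-term PM2.5. It was higher in every exposed library than in any PBS library. The exact permutation p was 0.1 for each exposure, the smallest that 3 against 3 libraries allow, and 0.129 after adjustment over 9 such tests. The quotients were chosen after the values had been seen. F3 and Tfpi differ in transcript length (1872 and 3968 bases), and the log2 difference for short-term PM2.5 was 0.97 as deposited and 0.47 from corrected values.

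Thbd (gene 21824, chromosome 2, 148404471 to 148408188) encodes thrombomodulin, the endothelial receptor that turns thrombin from a clotting into an anticoagulant enzyme. Its level was 377, 380.2 and 336 TPM in PBS, 53.4, 153 and 126 after short-term PM2.5, and 232, 215 and 295 after long-term PM2.5. The 3 groups did not overlap one another. Thbd fell after short-term PM2.5, to 0.304 of the PBS mean, with a log2 fold change of -1.84 (95% interval -2.53 to -1.14, limma adjusted p = 0.00142). The corrected value was -1.5 (limma adjusted p = 0.000566), and 0.653% of the genes in its own decile of transcript length had a lower fold change. The long-term libraries stood at 0.679 of the PBS mean, a log2 difference of -0.57 that missed the threshold (limma adjusted p = 0.344), also corrected (-0.67, limma adjusted p = 0.0601), and passed without the first short-term library (limma adjusted p = 0.00835). Long-term against short-term the difference was 1.27 (limma adjusted p = 0.00898) and 0.83 corrected (limma adjusted p = 0.0166).

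Endothelial markers were lower in both exposed groups. Of 12 tested markers 7 fell after short-term PM2.5, with a median of -0.65 over the list, against 40.3% of all genes and a median of -0.34. After long-term PM2.5, 6 fell, with a median of -0.51, against 1.72% and a median of 0.03. After correction 8 and 12 of the markers were lower, against 26.4% and 11.6% of all genes. The summed level of the 12 markers was 5962 to 6443 TPM in PBS, 4786 to 5445 after short-term and 4064 to 4552 after long-term PM2.5. In whole lung, fewer cells of a type and less RNA per cell cannot be told apart, and the part of endothelial content in the Thbd values was not tested.

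Procr (gene 19124, chromosome 2, 155751125 to 155755478) encodes the endothelial receptor that presents protein C to the thrombin and thrombomodulin complex. It was measured at 17.6, 20.1 and 15.4 TPM in PBS, 14.5, 21.8 and 20.8 after short-term, and 27.6, 21.7 and 24.8 after long-term PM2.5. All long-term libraries were above all PBS libraries. The log2 fold change of 0.46 for long-term against PBS did not pass (limma adjusted p = 0.149), and the corrected value was 0.23 (limma adjusted p = 0.252). It passed in a fit of the PBS and long-term groups alone (limma adjusted p = 0.0173) and without the first short-term library (limma adjusted p = 0.0184). For short-term PM2.5 the difference was 0.09 (95% interval -0.31 to 0.49) and -0.03 corrected.

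Thbd and Procr, 2 receptors of 1 pathway, did not move in parallel within libraries. The quotient of Thbd to Procr was 21.4, 18.9 and 21.9 in PBS, 3.68, 7.03 and 6.05 after short-term and 8.38, 9.91 and 11.9 after long-term PM2.5, without overlap between any groups (exact permutation p = 0.1 in each comparison, adjusted p = 0.129). From corrected values the log2 difference was -1.47 for short-term and -0.90 for long-term PM2.5 against PBS.

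**Figure D4:**
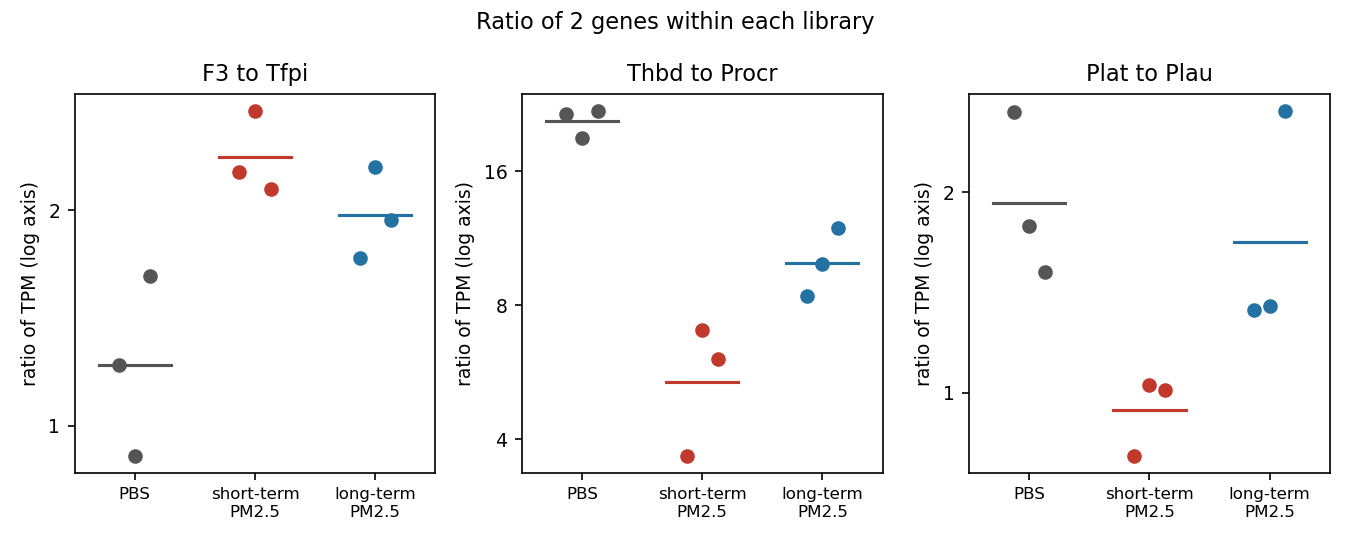
Quotients of F3 to Tfpi, Thbd to Procr and Plat to Plau in each library (points) on a log axis, with lines at the geometric mean of each group. The quotient of Thbd to Procr lies between 18.9 and 21.9 in PBS and below 12 in every exposed library.

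Plat (gene 18791, chromosome 8, 22757722 to 22782848) encodes tissue plasminogen activator, the main activator of plasminogen on fibrin. It stood at 25.8, 21.3 and 23.0 TPM in PBS, 8.46, 19.6 and 14.6 after short-term and 21.5, 19.5 and 23.3 after long-term PM2.5. Every short-term library was below every PBS library, and the second of them reached the lowest long-term library. Plat fell after short-term PM2.5 by 0.75 on the log2 scale (limma adjusted p = 0.0251). The corrected value was -0.26 (limma adjusted p = 0.0709), and 24.4% of genes of like transcript length had lower values. The call was also lost without the first PBS library (limma adjusted p = 0.0848) or the third (limma adjusted p = 0.0618). The long-term against short-term difference was 0.63 (limma adjusted p = 0.0496) and 0.05 corrected (limma adjusted p = 0.758).

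Urokinase, the cell-associated plasminogen activator, is encoded by Plau (gene 18792, chromosome 14, 20836662 to 20843388). Its level was 9.80, 11.96 and 15.1 TPM in PBS, 10.5, 19.0 and 14.4 after short-term and 16.2, 14.4 and 8.81 after long-term PM2.5, so the 3 groups overlapped. No comparison passed, with log2 fold changes of 0.22 (95% interval -0.36 to 0.80) for short-term and 0.07 (-0.51 to 0.65) for long-term PM2.5, and 0.39 and -0.11 corrected. The quotient of Plat to Plau was 2.63, 1.78 and 1.52 in PBS and 0.806, 1.03 and 1.01 after short-term PM2.5, without overlap (exact permutation p = 0.1, adjusted p = 0.129). The log2 difference was -1.03 as deposited and -0.64 from corrected values. After long-term PM2.5 it was 1.33, 1.35 and 2.65.

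Plaur (gene 18793, chromosome 7, 24460937 to 24475970) encodes the receptor that holds urokinase at the cell surface and is abundant on activated myeloid cells. It was 114, 74.3 and 94.8 TPM in PBS, 157, 159.9 and 148 after short-term and 123, 127 and 109.8 after long-term PM2.5. Short-term libraries were above all others. Plaur rose 1.64-fold after short-term PM2.5, by 0.73 on the log2 scale (limma adjusted p = 0.00314), and by 0.70 corrected (limma adjusted p = 0.00146). The long-term value of 0.36 did not pass (limma adjusted p = 0.177), nor did its corrected value of 0.17. Long-term against short-term it was -0.37 (limma adjusted p = 0.0562) and -0.53 corrected (limma adjusted p = 0.00865).

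Neutrophil markers, like Plaur, were higher after short-term PM2.5. All 9 tested rose, with a median of 1.25, and 8 rose after correction, against 11.7% and 24% of all genes. After long-term PM2.5, 2 of these markers rose, against 9.51%. In the long-term group 7 of them were lower and 1 higher than in the short-term group, against 7.08% and 43.4%. Their summed level was 537 to 829.9 TPM in PBS, 9301 to 10130 after short-term and 1740 to 2522 after long-term PM2.5. Lcn2, which airway epithelium also makes, was 184 to 366 TPM of this in PBS, 7789 to 9001 after short-term and 1282 to 1909 after long-term PM2.5. Of 9 monocyte markers 2 rose and 1 fell after short-term PM2.5, against 11.7% and 40.3% of all genes. After correction 4 of the 9 monocyte markers were higher and 1 lower, against 24% and 26.4%. The part of these cells in the Plaur values was not tested.

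F13a1 (gene 74145, chromosome 13, 36867178 to 37050244) encodes the catalytic subunit of factor XIII, which cross-links fibrin and is made by macrophages and megakaryocytes. F13a1 was the lowest of the 9 in every library, with 4.35, 4.13 and 5.07 TPM in PBS, 2.54, 6.97 and 5.45 after short-term and 5.77, 5.66 and 5.42 after long-term PM2.5. All long-term libraries lay above all PBS libraries, with a log2 fold change of 0.27 that did not pass (limma adjusted p = 0.676), nor did its corrected value of 0.17. The short-term value was 0.04 (limma adjusted p = 0.899) as deposited and 0.52 corrected (limma adjusted p = 0.00424). Its longest transcript has 3952 bases.

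Pf4 (gene 56744, chromosome 5, 90772435 to 90773383) encodes platelet factor 4, a heparin-binding chemokine of platelet granules. It was 37.5, 35.8 and 41.1 TPM in PBS, 89.3, 92.1 and 96.2 after short-term and 59.7, 35.1 and 35.1 after long-term PM2.5. The short-term libraries were within a narrow band above all others, and the first long-term library stood above the other two. Pf4 rose 2.43-fold after short-term PM2.5, by 1.26 on the log2 scale (95% interval 0.85 to 1.67, limma adjusted p = 0.00076), and by 0.90 corrected (limma adjusted p = 0.00116). Its longest transcript is short (588 bases), and 94.0% of genes in its decile of transcript length had lower values. Long-term against short-term the difference was -1.12 (limma adjusted p = 0.00153) and -0.98 corrected (limma adjusted p = 0.00103). Against PBS the long-term value was 0.14 (95% interval -0.28 to 0.55) and -0.09 corrected.

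Of 10 tested platelet markers none rose as deposited and Tubb1, the platelet tubulin, fell by 0.81 on the log2 scale after short-term PM2.5 (limma adjusted p = 0.0204). Over all genes 11.7% were called higher and 40.3% lower. The median over the list was -0.25, against -0.34 over all genes. After correction 1 was higher, the integrin gene Itgb3 (0.37, limma adjusted p = 0.013), and 2 were lower, Tubb1 and Ppbp, against 24% and 26.4% of all genes. The summed level of all 13 listed platelet markers was 34.98 to 60.3 TPM in PBS, 35.8 to 40.0 after short-term and 35.6 to 56.5 after long-term PM2.5. Ppbp, the neighbouring platelet chemokine gene, was 13.1, 6.06 and 14.9 TPM in PBS and 3.17, 7.82 and 7.56 after short-term PM2.5, a value of -0.78 that did not pass as deposited (limma adjusted p = 0.104) and of -0.96 that passed after correction (limma adjusted p = 0.0251). Of 11 tissue macrophage markers 4 rose and 2 fell after short-term PM2.5, against 11.7% and 40.3% of all genes. The list median was -0.04. Cd68, the lysosomal macrophage protein, was higher by 1.18 and C1qa, a complement gene, by 0.97. The 2 that fell were Mertk at -1.23 and Stab1 at -0.625. Their corrected values were -0.715 (limma adjusted p = 0.03) and 0.151 (limma adjusted p = 0.229). After correction 5 of the 11 were higher and 1 lower, against 24% and 26.4%. The summed level of the 11 tissue macrophage markers was 455 to 495 TPM in PBS, 696 to 816 after short-term and 876 to 1238 after long-term PM2.5. The part of macrophage content in Pf4 was not tested.

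**Figure D5:**
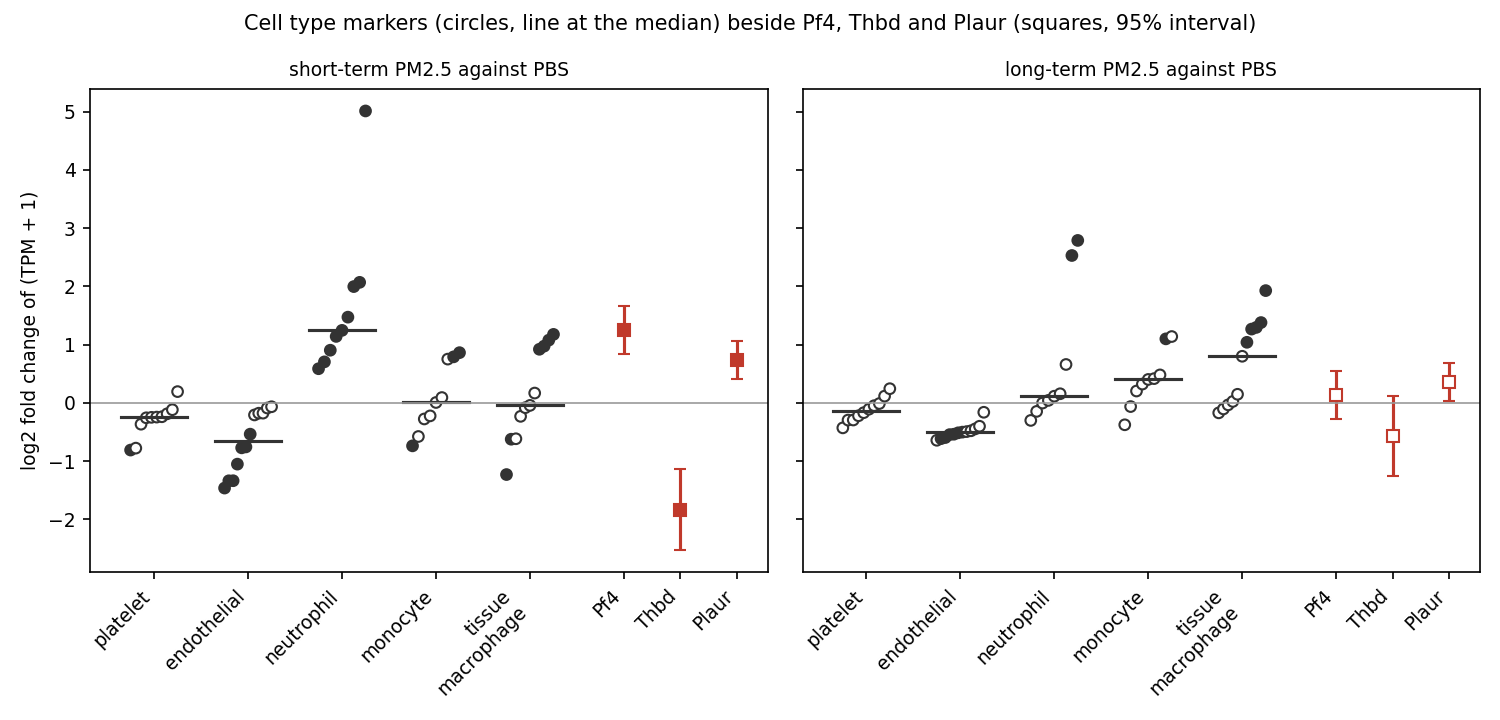
Log2 fold changes against PBS of the tested markers of 5 cell types (circles, with a line at the list median) beside Pf4, Thbd and Plaur (squares with 95% intervals), filled where adjusted p was under 0.05, for short-term and long-term PM2.5. After short-term PM2.5 all 9 neutrophil markers are filled above 0 (median 1.25), while the platelet markers have a median of -0.25 with 1 filled below 0.

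In order of level, Thbd was first and Plaur second in every PBS and every long-term library. In the short-term libraries Plaur was first in all 3, with Thbd at rank 3 in the first and rank 2 in the others. These ranks are of values as deposited, not corrected for the length trend of the short-term libraries. The longest transcripts of Thbd, Plaur and Pf4 have 3723, 2009 and 588 bases. In PBS, Thbd, Plaur, Pf4, Procr and Plau each stood clear of the gene below, whereas F3 overlapped Plat, Plat overlapped Tfpi and Tfpi overlapped Procr. After short-term PM2.5 the libraries of Plaur, Thbd and Pf4 overlapped in that order, and the genes from F3 down to Plat overlapped as well.

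Other clotting factor genes also moved. Of 15 listed factors 6 were tested, and 4 rose after long-term PM2.5, against 9.51% of all genes. After short-term PM2.5, 3 rose and 2 fell, against 11.7% and 40.3% of all genes. Fga and Fgg passed the filter on low values only with the help of exposed libraries, so these counts are not independent of the direction. F7, whose product binds tissue factor, was 9.81, 11.2 and 11 TPM in PBS, 19.0, 23.5 and 20.1 after short-term and 36.7, 33.4 and 26.6 after long-term PM2.5. It rose by 1.5 after long-term (limma adjusted p = 0.000208) and 0.90 after short-term PM2.5 (limma adjusted p = 0.00139), and by 1.34 and 0.83 corrected. F10, the next enzyme of the cascade, was 4.65, 4.18 and 3.78 TPM in PBS, 19.6, 19.1 and 12.2 after short-term and 11.2, 12.5 and 9.46 after long-term PM2.5. It rose by 1.76 after short-term (limma adjusted p = 0.00022) and 1.21 after long-term PM2.5 (limma adjusted p = 0.00289), and by 1.88 and 1.05 corrected. The fibrinogen chain gene Fga was 0.12, 0.41 and 0.09 TPM in PBS, 0.72, 1.41 and 0.62 after short-term and 0.61, 1.16 and 1.85 after long-term PM2.5. Fgg was 0.50, 1.20 and 0.19 TPM in PBS, 1.06, 1.77 and 0.92 after short-term and 1.77, 1.63 and 4 after long-term PM2.5. Their long-term calls were lost after correction (limma adjusted p = 0.0522 and 0.0566), and Fgb was listed at 0 in all 9 libraries. Vwf, the endothelial and platelet adhesion factor, fell after short-term PM2.5 by 1.00 on the log2 scale (limma adjusted p = 0.000691), and its corrected value was -0.20 (limma adjusted p = 0.14). After correction 2 of the 6 were higher and none lower in the long-term group, against 12.4% and 11.6% of all genes. In the short-term group 3 were higher and none lower after correction, against 24% and 26.4%. Of 8 listed liver markers 2 were tested, Trf and Ahsg, and both were called higher after long-term PM2.5, against 9.51%. Trf had a mean of 243.7 TPM in PBS and 428.7 after long-term PM2.5, and Ahsg 0.34 and 2.15. Ahsg passed the filter only through exposed libraries. The liver marker Alb was at most 0.63 TPM in any library.

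Among 9 listed anticoagulant proteins 6 were tested. After short-term PM2.5, 1 was called higher and 1 lower, against 11.7% and 40.3% of all genes. After long-term PM2.5, 2 were called higher, against 9.51%. Both of the latter, Proz and Serpina10, passed the filter only with the help of exposed libraries. Proz was also the 1 called higher after short-term PM2.5. Neither count of higher genes is therefore independent of the direction. Proz, a cofactor for inhibiting factor X, was 0.63, 0.64 and 0.61 TPM in PBS, 1.39, 1.57 and 1.53 after short-term and 2.52, 2.48 and 3.10 after long-term PM2.5. Serpina10, its partner inhibitor, was 1.36, 0.78 and 1.36 TPM in PBS. It rose by 1.01 after long-term PM2.5 (limma adjusted p = 0.0183) and by 0.90 corrected (limma adjusted p = 0.034). Pros1, the protein S gene, fell after short-term PM2.5 by 0.68 on the log2 scale, and its corrected value was -0.30 (limma adjusted p = 0.029). Neither of 2 tested protease-activated receptors passed in any comparison. Over all genes 11.2% passed for long-term and 51.9% for short-term against PBS, and 50.5% between the exposures.

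Of 14 listed fibrinolysis genes 8 were tested, with 1 higher and 1 lower after long-term PM2.5 and 2 higher and 2 lower after short-term PM2.5. These counts stand beside 11.2% and 51.9% called over all tested genes and are close to them for short-term PM2.5. Anxa2, a cell-surface docking protein for plasminogen and Plat, rose by 0.37 after long-term (limma adjusted p = 0.049) and 0.38 after short-term PM2.5 (limma adjusted p = 0.0136), and its partner S100a10 by 0.33 after short-term PM2.5. After correction Anxa2 was 0.19 for long-term (limma adjusted p = 0.255) and 0.44 for short-term PM2.5 (limma adjusted p = 0.00865), and S100a10 was -0.05 (limma adjusted p = 0.674). Vtn, the adhesion protein vitronectin, fell by 0.68 on the log2 scale after long-term and by 0.74 after short-term PM2.5, and its corrected value was -0.85 in both. Lrp1, a clearance receptor for the activators, fell after short-term PM2.5 by 0.51 on the log2 scale as deposited. It was 0.35 higher after correction, and both values passed the threshold (limma adjusted p = 0.0144 and 0.0122). For long-term PM2.5 the Lrp1 value was 0.17 as deposited (limma adjusted p = 0.597) and 0.30 corrected (limma adjusted p = 0.0455). Plg, the plasminogen gene, was at most 0.09 TPM in any library. Between the exposures, Serpine2 and Thbs1 were higher in the long-term group, by 0.93 and 1.42 as deposited and by 0.42 and 0.72 corrected.

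Of 13509 genes searched, those whose log2(TPM + 1) followed each gene most closely over the 9 libraries were named by Pearson's r as a description. For Thbd these were Trim32 (r = 0.997), She (r = 0.995) and Sema3c (r = 0.995). For Pf4 they were Tnfsf14 (r = 0.988), Lsm3 (r = 0.984) and Micos10 (r = 0.981). Hsbp1 (r = 0.971), Tubb6 (r = 0.968) and Atp6v1g1 (r = 0.964) followed Plaur. The closest for the others were Psmd12 for F3 (r = 0.968), Zw10 for Tfpi (r = 0.983), Chac2 for Procr (r = 0.954), Socs5 for Plat (r = 0.994), Eif3j1 for Plau (r = 0.973) and Cutc for F13a1 (r = 0.973). The points share libraries, groups and the length trend.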

How the data were processed

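Total RNA of whole lung was enriched for mRNA, and libraries underwent DSN processing, per the labels' protocols. HISAT2, Bowtie2, RSEM and DESeq2 are named without role or version, and GRCm38.p6 for 8 of the 9 samples, per the submitters' processing notes. The authors deposited TPM values. TPM keeps no read numbers, so depth is unknown and no counting interval is given. The members and gene lists were chosen with earlier results of these data known.

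The filter kept 13991 genes that reached 1 TPM in 3 or more libraries and left out 4884. Values were fitted as log2(TPM + 1) with limma 3.58.1 in R 4.3.3 over 3 groups (6 residual degrees of freedom, eBayes with trend), with two-sided tests, p-values adjusted by Benjamini-Hochberg over every gene in the fit, and a threshold of 0.05. The code was tested on simulated data. Python 3.11.15 was used for descriptions and figures. The correction fitted natural splines (5 degrees of freedom each) of length and GC content per library, without 199 genes that lack a length. It was first run with median and then with longest transcript length, a choice made after the first results were seen, because fragments in the annotation shorten the median. Promoter sequences and positions are from RefSeq, GRCm38.p6. Besides the 9 genes, up to 4 called genes with the smallest p of a list and comparison were eligible for naming, plus Plg, Vwf, Fgb and, for each of the 9, the 3 most correlated genes, and not all are printed. 1 further gene of this rule is not reported here. Ppbp, Itgb3, Cd68, C1qa, Mertk, Stab1, Trf, Ahsg, Alb and Lcn2 were named after their values were seen. Alternatives covered scaling, pseudocount, filter, weights, blocking and left-out libraries.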

Additional observations from a re-analysis of the deposited data

Results flagged for a closer look

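For 3 genes, 1 of them only as deposited, the effects of the 2 exposures differed in a direct test, the comparison of long-term with short-term PM2.5, and each difference was tested with limma with adjustment over all tested genes. Thbd was higher in the long-term group by 1.27 on the log2 scale (limma adjusted p = 0.00898), and all 3 long-term libraries lay above all 3 short-term libraries. Plat was higher by 0.63 (limma adjusted p = 0.0496), with overlapping libraries. Its corrected difference was 0.05 (limma adjusted p = 0.758), and the call was kept in 1 of 13 alternatives and with 1 of the 9 libraries left out. Pf4 differed by -1.12 (limma adjusted p = 0.00153), with all 3 long-term libraries below all 3 short-term libraries. In this comparison 50.5% of all tested genes were called.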

How the results depend on the processing

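Thbd and Pf4 passed in the short-term comparison with PBS and in long-term against short-term, and Plaur in the first of these, in all 13 alternatives and with each of the 9 libraries left out. TPM gives no depth, and 3 libraries per group limit the precision. Plat passed in 8 of 13 alternatives for short-term against PBS and in 1 of 13 for long-term against short-term. Median transcript length in the correction was chosen first and is given beside the longest.

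Of the 9 genes, those called in long-term against PBS numbered 3 with these 2 groups fitted alone, 4 with array weights (whose fit did not reach convergence), 1 after length and GC correction, 1 with median length and 1 after quantile scaling. For short-term against PBS they were 7 with array weights and 7 with median-ratio scaling, and for long-term against short-term 7 with array weights, 6 with median length and 5 after quantile scaling. With 1 library left out they ranged from 0 to 2, from 3 to 6 and from 2 to 6 in that order of comparisons. Over all genes the long-term calls were 3881 with 2 groups alone, 5273 with array weights, 3311 corrected, 3266 with median length, 2802 corrected with the replicate block, 920 at a mean of at least 5 TPM and 2583 after quantile scaling. Array weights gave 11335 for short-term and 11345 for long-term against short-term. Leaving out a library gave 853 to 3157, 5123 to 8925 and 4621 to 9168. The share of calls that were lower was 15.3%, 77.5% and 14.0% as deposited, 25.9%, 53.2% and 42.3% with median-ratio scaling, 44.8%, 51.9% and 50.2% after quantile scaling, and 48.4%, 52.4% and 53.5% corrected.

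Some log2 differences that had not passed changed sign, and the cause was not tested. In long-term against short-term, F13a1 became -0.35 corrected, with or without the block, -0.51 with median length, -0.0901 with median-ratio and -0.38 with quantile scaling. In the same order F3 became -0.16, -0.31, -0.27 and -0.21, and Tfpi -0.24, -0.34, -0.00602 and -0.12. Procr was -0.031 after quantile scaling. In long-term against PBS, Pf4 was -0.00839 with array weights and -0.0859 corrected, and Plau -0.11 corrected, -0.0648 with median length and -0.0258 after quantile scaling. In short-term against PBS, Procr was -0.0287 corrected. With 1 library left out, long-term against short-term ranged from -0.12 to 0.47 for F13a1, from -0.27 to 0.53 for F3 and from -0.35 to 0.09245 for Plau. Long-term against PBS ranged from -0.11 to 0.26 for Pf4 and from -0.09275 to 0.31 for Plau. Short-term against PBS ranged from -0.20 to 0.38 for F13a1, from -0.16 to 0.64 for F3 and from -0.0146 to 0.27 for Procr.

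Libraries of different groups share only a number: correlations of same-numbered deviations ran from -0.286 to 0.262. With the replicate number as a block, 0, 4 and 2 of the 9 genes and 1125, 6376 and 6111 genes in all were called.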
